A study of Panagrellus redivivus with 189 samples.

Results

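Embryos of 9, 10 and 12 cells were compared with embryos of 6, 7 and 8 cells in the free-living nematode Panagrellus redivivus. Single blastomeres, the cells of an embryo in early cleavage, had been separated by hand once the egg shell was off, and the RNA of each was amplified and sequenced with CEL-Seq2, a 3′-end method that gives every cell its own barcode. The 9-12 cell group holds 29 libraries of 3 embryos, namely 9-cell embryo 1 (9 libraries), 10-cell embryo 1 (10 libraries) and 12-cell embryo 2 (10 libraries). The 6-8 cell group holds 31 libraries of 6 embryos, namely 6-cell embryo 1 (4 libraries), 7-cell embryo 1 (7 libraries) and 8-cell embryos 2 to 5 (6, 4, 7 and 3 libraries). These 60 libraries, from 9 of the 20 embryos of the series, were chosen by stage label within the higher of the 2 runs of sample numbers. All carry the cell type label embryonic cell, with no treatment, genotype or strain given. No blastomere of these embryos is named in the labels and no marker gene can be looked up in the files, so the label could not be checked against markers.

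The first divisions of an animal embryo run on RNA that the mother placed in the egg. That maternal RNA is broken down over the following cell cycles, while transcripts from the embryo's own genome come to take its place. In nematodes the early divisions are also unequal and produce founder cells with different fates, so that cells of one embryo can differ from each other as well as from the cells of an older embryo. The comparison asks which transcripts differ in level between these neighbouring cleavage stages, and whether cells within an embryo are less alike in the later one.

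The libraries of an embryo were summed, and the embryo was the replicate (n = 3 against n = 6). The labels do not say whether the embryos came from separate cultures, and the p-values measure only the spread between these embryos. Each embryo was sequenced as a pool of its own, so a stage with 1 embryo and its sequencing pool cannot be told apart. The 6-cell embryo, 8-cell embryos 2 to 5 and 12-cell embryo 2 have fewer libraries than labelled cells, so cells are missing from their sums. Most of these embryos are in the 6-8 cell group, and the part of missing cells in the differences was not tested. Outside 6 rows that were left out throughout, the sums were 101911, 180672 and 93917 counts in the 9-, 10- and 12-cell embryos. In the 6- and 7-cell embryos they were 18396 and 159648 counts, and in 8-cell embryos 2 to 5 they were 127933, 4992, 85116 and 54187 counts. The smallest sum, in 8-cell embryo 3, is spread over 4 libraries, while in 8-cell embryo 5 1 of 3 libraries held 74.6% of the counts. Single libraries held 270 to 29433 counts (median 11281) in the 9-12 cell group and 854 to 44125 counts (median 10779) in the 6-8 cell group. Levels are given as CPM, the counts of a feature scaled to a total of 1000000 counts outside the 6 rows. The table does not pair its rows with gene models, so each feature goes by its row number, as in row114, and no function can be given. A lower level in an embryo sum can mean fewer cells with the transcript or less of it per cell, and these cannot be told apart in the sums.

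Between the stages 1 feature, row114, passed the threshold. It was higher in the 9-12 cell embryos, with a log2 fold change of 2.91 (SE 0.51). Its adjusted p was 0.0307 in edgeR's quasi-likelihood test with Benjamini-Hochberg adjustment over the 557 features tested. Of the features tested, 0.18% were thus called higher in 9-12 cell embryos and 0% lower. At an unadjusted p under 0.05 there were 83 features, 28 higher and 55 lower. The median feature differed by 0.05 on the log2 scale. For 9 features (1.62%) the CPM of all 3 later embryos lay above that of all 6 earlier embryos, and for 16 (2.87%) it lay below. With the CPM scaled by edgeR's TMM factors these counts were 15 and 14, so the split between the directions depends on the scaling. Of the 84 ways to split 9 embryos into 3 and 6, 1 puts all 3 above the others, a share of 0.0119. As many put all 3 below. The numbers of features were not tested against that share.

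Feature row114 stood at 2286, 11192 and 4302 CPM in the 9-, 10- and 12-cell embryos, against 707 CPM at 6 cells, 470 CPM at 7 cells, and 586, 401, 1739 and 904 CPM in 8-cell embryos 2 to 5. The groups did not overlap, and the 10-cell embryo was the highest of all 9. The fold between the group means was 7.40, with 5927 ± 4670 CPM (SD, n = 3) in 9-12 cell embryos and 801 ± 493 CPM (SD, n = 6) in 6-8 cell embryos. The counts came from most libraries of the later embryos. Feature row114 had a count in 8 of 9, 10 of 10 and 9 of 10 libraries of the 9-, 10- and 12-cell embryos. The library with the most counts held 48.9%, 16.1% and 25.2% of them in these embryos. In the 10-cell embryo every library was at 6663 CPM or more, above the highest library of any 6-8 cell embryo, 3744 CPM in 8-cell embryo 4. That did not hold for the other later embryos. The 9-cell libraries ran from 0 to 3873 CPM, with the second highest at 2900 CPM. The 12-cell libraries of at least 1000 counts ran from 1185 to 8136 CPM. Older embryos of the same run of samples, which were not part of the test, held still more, with 13177 CPM in the 20-cell embryo, 17314 CPM in the early gastrula embryo and 16281 CPM in the late gastrula embryo. In the lower run of sample numbers row114 had 19 counts (947 CPM) in the 12-14 cell embryos and 1 count in the 1-3 cell embryos.

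The call on row114 did not hold in every setting. Its log2 fold change ran from 2.02 to 3.39 over 21 other settings of the comparison of groups and passed the threshold in 11 of them. Without the 10-cell embryo it was 2.02 (adjusted p = 0.484, edgeR's quasi-likelihood test), with levels still above all 6-8 cell embryos, and the call was also lost without any 1 of the 6-8 cell embryos other than 8-cell embryo 4.

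**Figure D1:**
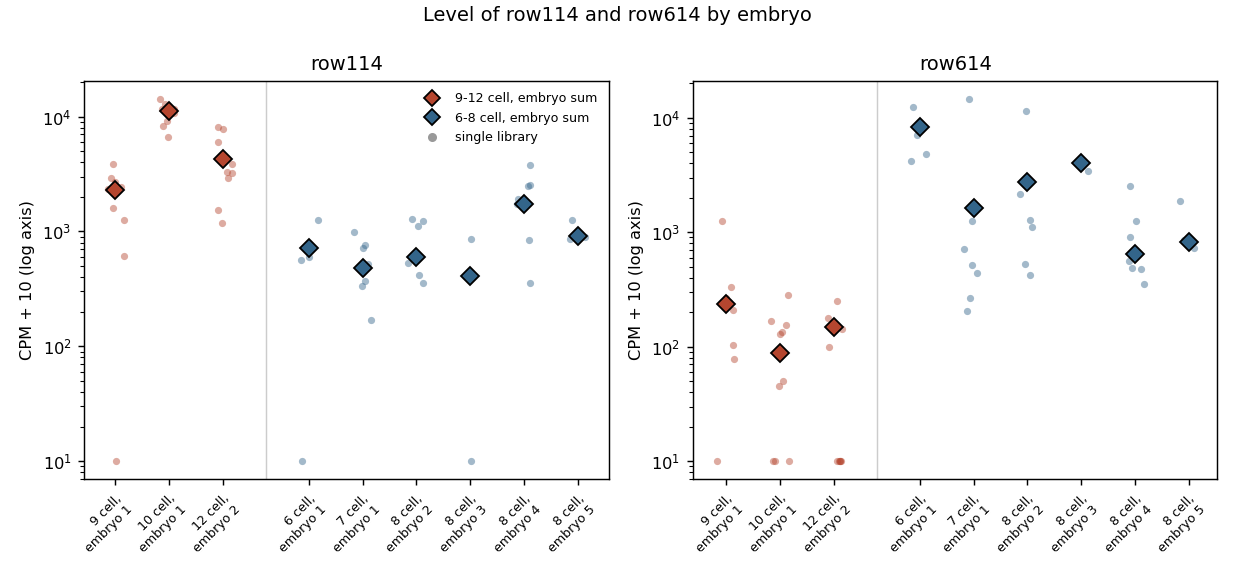
Level of row114 (left) and row614 (right) in CPM plus 10 on a log axis. Diamonds are embryo sums and dots single libraries of at least 1000 counts, with 9-12 cell embryos in red and 6-8 cell embryos in blue. The 3 red diamonds lie above all blue ones for row114 and below all of them for row614, and in 7-cell embryo 1 and 8-cell embryo 2 a single library lies far above the others for row614.

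Next to row114, the higher features with the smallest p-values were row1521, row1133, row1330 and row186, none of which passed the threshold (adjusted p of 0.169, 0.192, 0.221 and 0.248, edgeR's quasi-likelihood test). Feature row1133 was even across the later embryos, with 5848, 5026 and 5122 CPM at 9, 10 and 12 cells, against 1033 CPM at 6 cells, 3151 CPM at 7 cells, and 4166, 1202, 2620 and 2215 CPM in 8-cell embryos 2 to 5. The groups did not overlap, and the log2 fold change was 1.19 (SE 0.38). Feature row1521 had 1285, 465 and 799 CPM at 9, 10 and 12 cells and 73.8 to 367 CPM (median 236) in 6-8 cell embryos, again with no overlap. Its levels in the earlier embryos rest in part on few counts, with 5 at 6 cells, 57 at 7 cells, and 47, 1, 9 and 4 in 8-cell embryos 2 to 5. Feature row1521 was uneven within embryos. In the 10-cell embryo library 7 held 62 of the 84 counts, at 5583 CPM, and without it the embryo was at 129.7 CPM, within the range of the earlier embryos. In the 9-cell embryo library 2 was the highest, at 5260 CPM, with at most 2996 CPM in the others. Feature row186 had 1649, 1915 and 1161 CPM in the later embryos and 601 to 1090 CPM (median 971) in the earlier ones. Feature row1330 did overlap. It was at 3660, 5397 and 1917 CPM at 9, 10 and 12 cells and at 163.1 to 2220 CPM (median 643) in 6-8 cell embryos, with 7-cell embryo 1 and 8-cell embryo 4 above the 12-cell embryo. Features row1133, row1330 and row186 were among the features that were higher in 12-14 cell than in 1-3 cell embryos of the lower run of sample numbers, and so was row185, which was at lower levels in the 9-12 cell embryos.

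Among features with lower levels in 9-12 cell embryos, row614 came closest to the threshold, with a log2 fold change of -4.23 (SE 0.85) and an adjusted p of 0.0608 in edgeR's quasi-likelihood test. It stood at 226, 77.5 and 138.4 CPM in the 9-, 10- and 12-cell embryos, against 8263 CPM at 6 cells, 1610 CPM at 7 cells, and 2759, 4006, 634 and 812 CPM in 8-cell embryos 2 to 5. The groups did not overlap, and the 6-cell embryo was the highest. In the 9-cell embryo the highest library was number 9, at 1248 CPM, with at most 322 CPM in the others. In the 6-cell embryo all 4 libraries held it, at 4213 to 12504 CPM. In the 7-cell embryo 1 library, number 6 by its title, held 71.98% of the 257 counts, at 14545 CPM against at most 1255 CPM in the other libraries. In 8-cell embryo 2 library 6 held 227 of 353 counts, at 11523 CPM against at most 2130 CPM in the others. Leaving these libraries out, row614 was at 490 CPM in the 7-cell embryo and 1164 CPM in 8-cell embryo 2, still above the 3 later embryos. The 20-cell embryo had 194 CPM of row614, and the gastrula embryos had 0 counts.

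The other lower features with the smallest p-values were row1546, row1242, row1060 and row185, with adjusted p-values of 0.158, 0.169, 0.169 and 0.169 in edgeR's quasi-likelihood test. Feature row1242 had 834, 758 and 596 CPM at 9, 10 and 12 cells and 1304 to 3322 CPM (median 2108) in 6-8 cell embryos, a log2 fold change of -1.50 (SE 0.39). Feature row185 had 1158, 969 and 756 CPM in the later embryos and 1735 to 7610 CPM (median 2761) in the earlier ones, a log2 fold change of -1.92 (SE 0.51). Neither overlapped between the groups. In the 20-cell, early gastrula and late gastrula embryos row1242 was at 2169, 2679 and 2853 CPM, within the range of the 6-8 cell embryos. There row185 was at 567, 54.3 and 36.8 CPM, below the 9-12 cell embryos. Features row1546 and row1060 were rare, and their levels rest on few counts. In the 9-, 10- and 12-cell embryos row1546 had 2, 3 and 1 counts (19.6, 16.6 and 10.6 CPM) and row1060 had 1, 2 and 1 counts (9.81, 11.1 and 10.6 CPM). Both were at 0 counts in 8-cell embryo 3, the shallowest embryo, so that the groups overlapped. In the other 6-8 cell embryos row1546 was at 93.96 to 326 CPM, from 6 to 22 counts, and row1060 at 23.5 to 147.6 CPM, from 2 to 14 counts. Both counts of row1060 in 8-cell embryo 4 came from library 5, and without library 6 the 7-cell embryo had 34.0 CPM of it in place of 81.4 CPM.

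**Figure D2:**
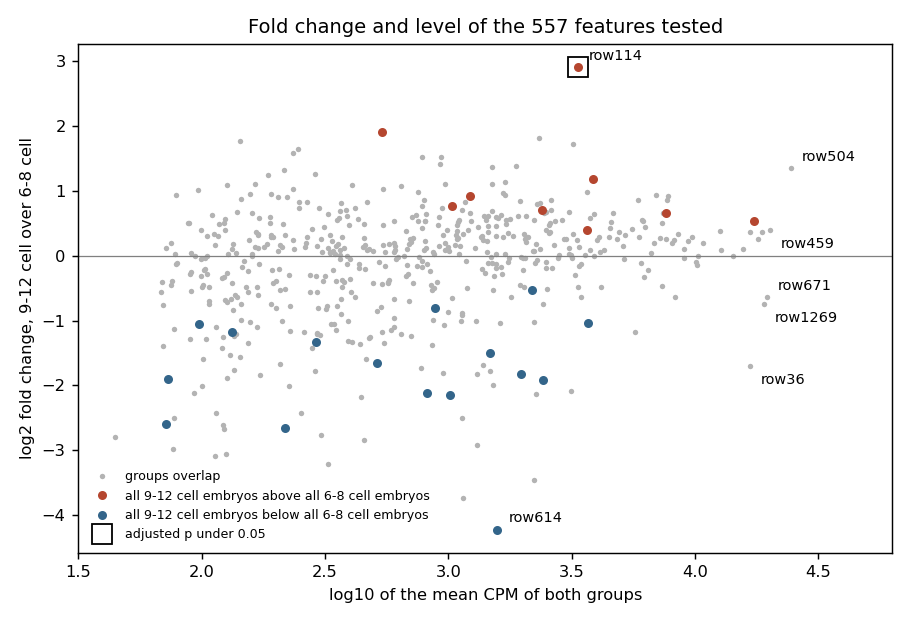
Log2 fold change, 9-12 cell over 6-8 cell, against the log10 of the mean CPM of both groups, for the 557 features tested. Red and blue points are the 9 and 16 features whose embryo levels do not overlap, and the square marks row114, with an adjusted p under 0.05. Low-level features among those tested reach further below 0 than above it. The filter asks for enough counts in as many embryos as the smaller group holds. A feature seen in 1 group only can thus pass on part of the 6-8 cell embryos but needs all of the 9-12 cell ones. The directions are therefore not treated alike at low levels.

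Of the 1236 features with a count in these 9 embryos, 3 had no count in the 6 earlier ones and a count in each later one. The opposite pattern was met by 0 features. The opposite pattern asks for a count in all 6 earlier embryos, among them 8-cell embryo 3 with 4992 counts. It is thus harder to meet, and the numbers 3 and 0 cannot be compared. These 3 features did not pass the filter on counts, so they did not enter the test. With no filter, row1302 was among the 26 features called. Feature row1302 had 15, 23 and 1 counts at 9, 10 and 12 cells, or 147.2, 127.3 and 10.6 CPM. Over the group that is 103.6 CPM, at least 15.5-fold higher than 6.66 CPM, the level of 3 counts over the 6-8 cell group, which is the limit a count of 0 allows. Feature row1302 was found in 2, 4 and 1 libraries of these embryos, and 19 of the 23 counts in the 10-cell embryo came from library 7. Without that library the group was at 54.7 CPM, at least 8.22-fold higher by the same limit. These were in part the libraries high in row1521, since library 2 of the 9-cell embryo and library 7 of the 10-cell embryo were the highest of their embryos for both features. Feature row879 had 7, 1 and 1 counts and row170 had 1, 4 and 1 counts, 3.59-fold and 2.39-fold higher by the same floor. That floor covers the counting error of a count of 0 only, and not that of the later group. Without the library with the most counts, these values were 2.07-fold for row879 and 1.71-fold for row170. Without the 2 libraries with the most counts they were 1.36-fold for row879 and 0.90-fold for row170, and 5.14-fold for row1302. Feature row1302 was at 172.3 CPM in the 20-cell embryo, where row879 had 0 counts and row170 had 4.

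The most abundant features of these embryos were row504, row671, row1269, row36 and row459, and none of them passed the threshold (adjusted p of 0.254, 0.428, 0.428, 0.263 and 0.428, edgeR's quasi-likelihood test). Of these 5, row459 varied least between embryos. It was at 20282, 22704 and 23223 CPM at 9, 10 and 12 cells and at 14867 to 22123 CPM (median 17502) in 6-8 cell embryos. Feature row504 was at 40957, 51497 and 12042 CPM in the later embryos, against 11144 CPM at 6 cells, 12853 CPM at 7 cells, and 9771, 5208, 33554 and 12715 CPM in 8-cell embryos 2 to 5. The 9- and 10-cell embryos were above all earlier ones, while the 12-cell embryo lay among them and 8-cell embryo 4 stood high.

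Feature row36 was lower in 2 of the 3 later embryos than in any earlier one, and its level in the third came in large part from a single library. It was at 2904, 2535 and 16483 CPM at 9, 10 and 12 cells, against 40444 CPM at 6 cells, 11018 CPM at 7 cells, and 35323, 46074, 13899 and 10150 CPM in 8-cell embryos 2 to 5. In 12-cell embryo 2, library 4 held 762 of the 1548 counts, at 180569 CPM, while the other libraries of at least 1000 counts ran from 4227 to 27902 CPM. In the 9- and 10-cell embryos no library was above 3994 CPM. In 8-cell embryo 4, library 7 stood out in the same way, at 97131 CPM against at most 24823 CPM in the others. In 8-cell embryo 2 there were 2 such libraries, number 6 at 64365 CPM and number 1 at 61258 CPM. In 8-cell embryo 5, library 1 was at 34494 CPM against at most 9467 CPM in the other libraries. With the highest library left out of every embryo, row36 was at 2860, 2433 and 8763 CPM at 9, 10 and 12 cells, against 38838 CPM at 6 cells, 8977 CPM at 7 cells, and 30037, 42114, 11909 and 8628 CPM in 8-cell embryos 2 to 5. The 12-cell embryo then lay just above 8-cell embryo 5, so the groups still overlapped, and 8-cell embryo 2 without both of its high libraries was at 8548 CPM. The log2 fold change of row36 was -1.70 (SE 0.68), and -3.09 without the 12-cell embryo, where the adjusted p was 0.0526 in edgeR's quasi-likelihood test.

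Feature row671 also had a single high library in the 9-cell embryo. Library 9 was at 112831 CPM, with at most 35049 CPM in the other 8, and the same library was the highest of its embryo for row1269 (53919 CPM, against at most 12066 CPM), for row185 (11732 CPM, against at most 1289 CPM) and for row614. In the 7-cell embryo, library 6 was the highest for these same 4 rows, at 61090, 50083, 15174 and 14545 CPM for row671, row1269, row185 and row614. Library 9 of the 9-cell embryo held 39.8% of its embryo's counts of row185, and without it the embryo was at 725 CPM. Library 6 of the 7-cell embryo held 193 of 402 counts of row185, and without it that embryo was at 1422 CPM, still above the 3 later embryos. Over embryo sums row671 and row1269 did not separate the groups. Feature row671 was at 23589, 13931 and 7049 CPM at 9, 10 and 12 cells and at 14967 to 37637 CPM (median 24145) in 6-8 cell embryos. Feature row1269 was at 10038, 7251 and 23297 CPM in the later embryos and at 10280 to 37758 CPM (median 23610) in the earlier ones.

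**Figure D3:**
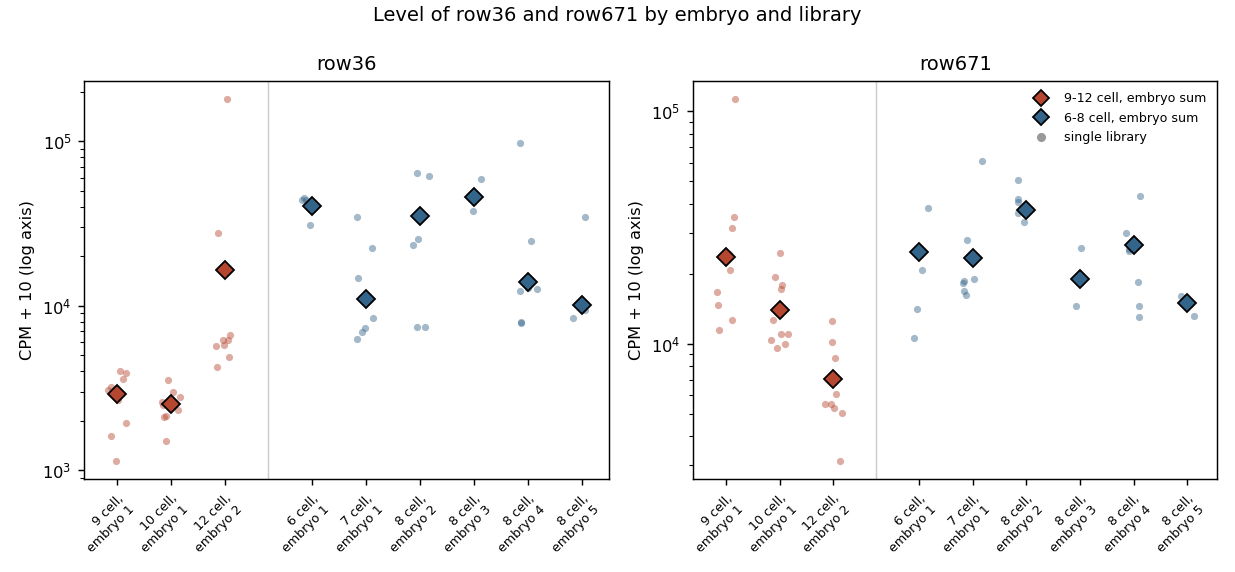
Level of row36 (left) and row671 (right) in CPM plus 10 on a log axis, with embryo sums as diamonds and libraries of at least 1000 counts as dots. For row36 library 4 of 12-cell embryo 2, at 180569 CPM, is the highest point, and for row671 it is library 9 of the 9-cell embryo, at 112831 CPM.

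Features row36, row671, row1269 and row1219 had the highest dispersion index between the libraries of an embryo, which compares a feature's spread over libraries, each thinned to 1000 counts, with that of random sampling (1). For row36 the index was 1.41, 1.10 and 122.2 in the 9-, 10- and 12-cell embryos, and it reached 43.1 in 8-cell embryo 4. Feature row1219 owed its place to 8-cell embryo 2, where library 6 was at 67462 CPM and the others at 15883 CPM or less. In the sums row1219 was at 4553, 6227 and 7602 CPM at 9, 10 and 12 cells and at 5223 to 17228 CPM (median 9198) in 6-8 cell embryos, with a log2 fold change of -0.63 (SE 0.44, adjusted p = 0.489 in edgeR's quasi-likelihood test).

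To place this comparison within early development, 2 lists were taken from embryos of the lower run of sample numbers, where 12-14 cell embryos were tested against 1-3 cell embryos. The 12-14 cell side of that test was 1 embryo of 12 cells and 1 of 14 cells, so the lists rest on few embryos. Of 279 features tested there, 44.1% were higher at 12-14 cells, called here the late-abundant list, and 36.9% were lower, the early-abundant list. Between 9-12 cell and 6-8 cell embryos the early-abundant features had a median log2 fold change of -0.53, with 72 below and 29 above 0, against a median of 0.05 over all features tested, with 259 below and 298 above 0. The late-abundant features had a median of 0.27, with 92 above and 31 below 0. None of either list passed the threshold. At an unadjusted p under 0.05, 21.8% of the early-abundant features were lower (22 features) and 0.99% higher (1 feature), against 9.87% lower and 5.03% higher among all features tested. Of the late-abundant features 10.6% were higher (13 features) and 2.44% lower (3 features). Features row36 and row1219 are on the early-abundant list, and row504, row671, row1269, row459, row1133, row1330, row186 and row185 are on the late-abundant list.

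By embryo, the early-abundant list lay at -0.41, -0.47 and -0.40 in the 9-, 10- and 12-cell embryos, as the median log2 difference from the mean of the 6-8 cell embryos. In those it was 0.26 at 6 cells, -0.30 at 7 cells, and 0.61, 0.06, -0.17 and -0.01 in 8-cell embryos 2 to 5. All 3 later embryos were below all earlier ones, and the 7-cell embryo came nearest to them. Over all features tested that difference was 0.14 at 7 cells and -0.0061 at 12 cells, a wider gap than in the list. The separation of these 2 embryos thus depends on the scaling. The late-abundant list lay at 0.34, 0.18 and 0.25 in the 9-, 10- and 12-cell embryos. In the earlier embryos it was -0.16 at 6 cells, 0.30 at 7 cells, and -0.13, -0.17, 0.19 and 0.08 in 8-cell embryos 2 to 5. These ranges of medians overlapped, while the late-abundant shares of counts given below did not. Over all features tested the difference was 0.14 at 7 cells, 0.10 in 8-cell embryo 4 and -0.0034 at 10 cells. The overlap of the medians thus also depends on the scaling.

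The early-abundant features took 7.32%, 7.45% and 9.21% of the counts at 9, 10 and 12 cells. Their share was 16.6% at 6 cells, 8.70% at 7 cells, and 17.8%, 17.7%, 9.19% and 10.0% in 8-cell embryos 2 to 5. The ranges overlapped, since the 12-cell embryo lay above the 7-cell embryo and 8-cell embryo 4. Library 4 of 12-cell embryo 2 was the extreme, with 43.96% of its 4220 counts, against 5.42% to 14.8% in the other 9 libraries, and without it the embryo was at 7.58%. The late-abundant share of that library was 25.6%, against 57.04% to 70.5% in the others. The 9- and 10-cell embryos had no such library, with 4.97% to 8.86% and 6.00% to 8.63%. The 6-cell embryo and 8-cell embryo 3, with high shares in every library (15.9% to 17.4% and 17.0% to 18.5%), are also the 2 embryos with the fewest counts, and the part of depth in this was not tested. The share in 8-cell embryo 2 was uneven. Its library 6, with 19700 counts, had 40.2% and library 1 had 21.3%, and without library 6 the embryo was at 13.8%. Library 7 of 8-cell embryo 4 had 26.5% of 1987 counts in early-abundant features, against 6.76% to 11.3% in the others, and without it the embryo was at 8.77%. The libraries that were high in row36 in these 3 embryos were the same libraries as those with a high early-abundant share, of which row36 is a part. The late-abundant features took 65.3%, 64.6% and 65.9% of the counts at 9, 10 and 12 cells. In the 6-8 cell embryos their share was 52.4% to 63.97%, so these ranges did not overlap. The gap was narrow, since 8-cell embryo 4 without library 7 was at 64.53%. The difference in this share was not tested.

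**Figure D4:**
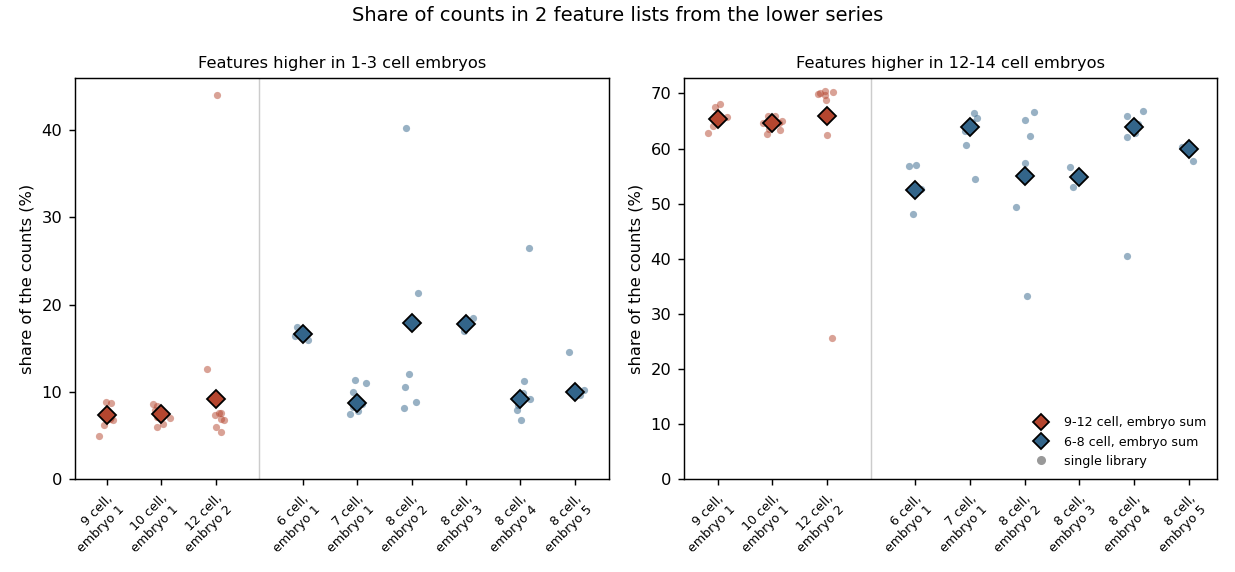
Share of the counts, in percent, in the early-abundant (left) and late-abundant (right) features. Diamonds are embryo sums and dots libraries of at least 1000 counts, red for 9-12 cell and blue for 6-8 cell embryos. Library 4 of 12-cell embryo 2 lies at 43.96% on the left and 25.6% on the right, far from the other libraries of its embryo.

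Leaving out the 4 libraries with more than 20% in early-abundant features, which were picked after their shares were seen, row114 was again the feature that passed (log2 fold change 2.99, adjusted p = 0.0333, edgeR's quasi-likelihood test), and the early-abundant median was -0.45.

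For features that change at gastrulation the groups overlapped. Of the 1244 features with a count in the 20-cell or gastrula embryos, 16 (1.29%) were at least 4-fold higher in both gastrula embryos than in the 20-cell embryo, and 8 of them were tested here, 4 above and 4 below 0, with a median of -0.31. By embryo the sign of that small list was the opposite, since it lay at 0.18, 0.34 and 0.12 in the 9-, 10- and 12-cell embryos relative to the mean of the 6-8 cell embryos, which themselves ran from -0.37 to 0.96. For the 51 features (4.1%) at least 4-fold lower in both gastrula embryos, 22 of 37 tested were below 0, with a median of -0.32. That median was -0.0032 without the 9-cell embryo, -0.085 without the 10-cell embryo and -0.71 without the 12-cell embryo. By embryo that second list was at -1.06, -0.78 and 0.14 in the 9-, 10- and 12-cell embryos and at -0.57 to 0.54 in the earlier ones, so the 12-cell embryo lay apart from the other later embryos. Features row614, row185, row1269, row36 and row1133 are on it.

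Within embryos, the later stage averaged fewer detected features per library at equal depth, a difference that did not pass the threshold once adjusted. For every library that reached 1000 counts, the number of features expected at that depth was calculated. Its median over libraries was 279, 271 and 253 features in the 9-, 10- and 12-cell embryos. In the earlier embryos it was 283 at 6 cells, 289 at 7 cells, and 282, 274, 288 and 302 in 8-cell embryos 2 to 5. The means were 268 ± 13.6 (SD, n = 3) and 286 ± 9.12 (SD, n = 6), a difference of -18.4 features with a two-sided exact permutation p of 0.0357 and an adjusted p of 0.179 over the 5 measures compared. The ranges overlapped, since the 9-cell embryo was above 8-cell embryo 3. The smallest p that 3 embryos against 6 allow is 0.0119.

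No difference between the groups in how alike the libraries of an embryo were passed the test. The mean Spearman coefficient between libraries of an embryo was 0.582, 0.652 and 0.553 at 9, 10 and 12 cells, against 0.561 at 6 cells, 0.580 at 7 cells, and 0.515, 0.576 and 0.572 in 8-cell embryos 2, 4 and 5. The difference of the means was 0.04 (two-sided exact permutation p = 0.321, adjusted p = 0.804). The median dispersion index was 1.54, 1.16 and 1.56 in the later embryos and 1.15 to 1.60 (median 1.34) in the earlier ones (two-sided exact permutation p = 0.571, adjusted p = 0.893). 8-cell embryo 3 had too few libraries of 1000 counts for either measure. The 10-cell embryo had the most similar libraries of all 8 embryos measured, and 12-cell embryo 2 and 8-cell embryo 2, with the libraries described above, the least similar.

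The 10 most abundant features took 18.6%, 19.8% and 17.4% of the counts at 9, 10 and 12 cells, and 16.5% to 20.2% (median 19.5%) in 6-8 cell embryos (two-sided exact permutation p = 0.881, adjusted p = 0.893). The median library held 7789, 17990 and 9113 counts in the later embryos and 1067 to 25437 counts (median 10813) in the earlier ones (two-sided exact permutation p = 0.893, adjusted p = 0.893).

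**Figure D5:**
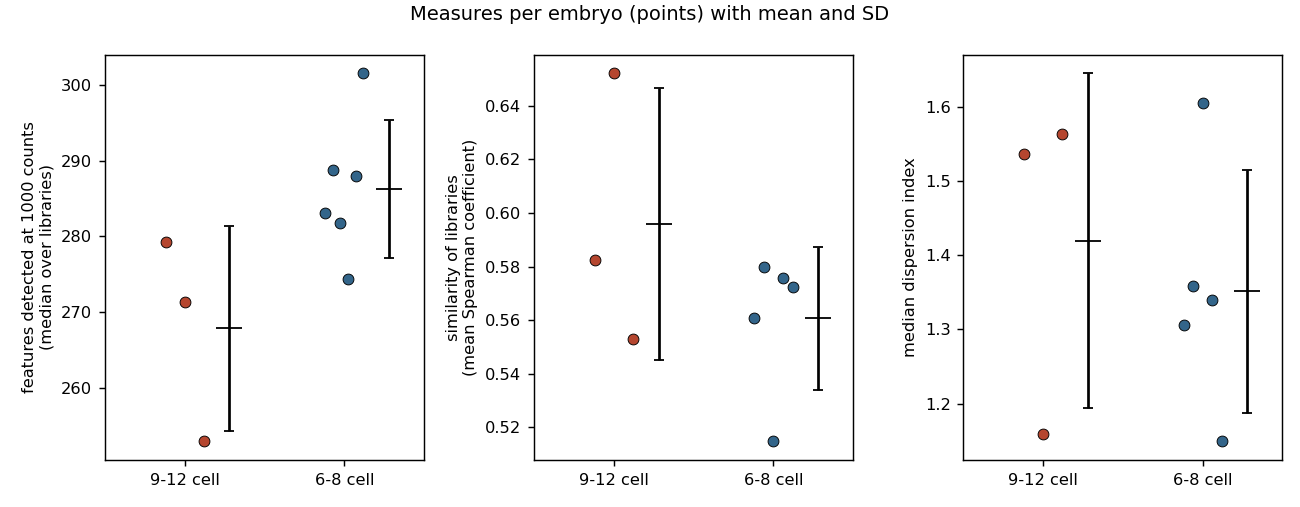
Features detected per library at 1000 counts, mean Spearman coefficient between libraries of an embryo, and median dispersion index, for 9-12 cell (red) and 6-8 cell (blue) embryos. Each point is an embryo, and bars show the mean and SD. The vertical axes do not start at 0, and the groups overlap in all 3 measures.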

How the data were processed

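The values are raw counts per feature and library, whole numbers without normalization, as the authors deposited them. Per the submitters' processing notes the tools were HTSeq 0.5.4p3, Bowtie2 2.1.0 and CASAVA 1.8. The genome build, and whether reads or molecular identifiers were counted, are not given in the sources used here. The copy of the table holds 1572 complete rows and ends inside a further one, so a library's total covers these rows alone and is not its sequencing depth. The series has 189 libraries. Other deposited files were not used here.

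Rows 789, 955, 956, 1147, 1149 and 1177 were left out. They held 2.27% to 7.49% of the counts in 9-12 cell embryos and 3.13% to 7.76% in 6-8 cell embryos. Counts were summed per embryo. Features passing edgeR's filterByExpr (557) were tested with edgeR 4.0.16 (TMM, quasi-likelihood, Benjamini-Hochberg threshold 0.05) in R 4.3.3, after tests on simulated data. DESeq2 1.42.0 and limma 3.58.1 (voom) were alternatives. Similarity and the dispersion index used libraries thinned 5 times to 1000 counts, which 57 libraries reach. Detected features were the number expected at that depth, by calculation. Measures per embryo were compared by exact permutation tests over the 84 arrangements of 9 embryos (56 of 8).

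Named features were those past the threshold with a mean of 50 CPM in the higher group, filled to 5 a direction by p, the 5 most abundant, up to 3 a direction absent from 1 group, and the 4 of highest dispersion index. List medians by embryo use log2 CPM with a prior count of 2. Fold limits between the 20-cell and gastrula embryos use CPM plus 10. The members and lists were chosen with earlier results of these data known. Embryos of a group differed by a chi-square of at least 2.18 per degree of freedom, so none was counted as a repeat. Alternatives covered the normalization, the filter, the tool, the 6 rows, library depth and the embryos and libraries used.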

Additional observations from a re-analysis of the deposited data

Results flagged for a closer look

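The level of row504 in 8-cell embryo 4 stood apart from the rest of its group. The 9-, 10- and 12-cell embryos were at 40957, 51497 and 12042 CPM. 8-cell embryo 4 was at 33554 CPM, while 5208 to 12853 CPM were found in the remaining 6-8 cell embryos. The gap to the nearest embryo was 0.730 of the whole range of the group. Of 28 sets of 6-8 cell values examined this way it was the 1 found, where chance gives about 1 in 20.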

How the results depend on the processing

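The count of features called was small and unstable. It was 1 as reported, 1 with RLE size factors, 26 with no filter (7 higher, 19 lower), 23 with DESeq2 (2 higher, 21 lower), 0 with limma-voom (93 at an unadjusted p under 0.05), 1 with the 6 rows kept in, 0 with libraries of at least 2000 counts, 5 with libraries thinned to 1000 counts, 2 without the deepest library of 8-cell embryo 5, 0 with 8-cell embryos alone as the early group, 0 for a slope per labelled cell, 2 in a fit of all 12 embryos and, in settings added after seeing the data, 0 without both embryos under 20000 counts and 1 without the 4 libraries high in early-abundant features. Leaving out 1 embryo at a time gave 0 to 17, the 17 (3 higher, 14 lower) without 8-cell embryo 4. Of these 17, 14 were among the 23 of DESeq2. The cause was not tested. The settings also differed in the number of features tested, so their counts are not out of the same total. That number was 557 as reported, with DESeq2 and with limma-voom. It was 1236 with no filter, 219 with libraries thinned to 1000 counts, 740 in the fit of all 12 embryos and 531 to 588 in the other settings. Log2 fold changes had the same sign in all 338 pairs of a named feature and an alternative setting, with 21 gains and 11 losses of a call. A feature that the filter of a setting dropped was not counted there. Most named features were picked by p or by level in these same embryos, and the settings share their counts. An unchanged sign is therefore no independent support.

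The list medians kept their sign on leaving out 1 embryo, except for the features higher in gastrula (8 tested), at -0.97 to 0.24, with 0.24 without 8-cell embryo 5. The ranges were 0.23 to 0.38 for the late-abundant list and -0.65 to -0.37 for the early-abundant list. For the features lower in gastrula the range was -0.71 to -0.0032, so the size of that median rests largely on the 9- and 10-cell embryos. Differences per embryo on leaving out 1 embryo ran from -24.1 to -10.9 for detected features, 0.0070 to 0.057 for similarity, -0.0034 to 0.20 for the dispersion index, -0.74 to 0.51 percentage points for the top 10 share and -3988 to 1791 for counts per library. For detected features the difference was -32.5 at 2000 counts (exact permutation p = 0.0238) and -15.2 with the 6 rows kept (exact permutation p = 0.190). As a mean over libraries it was -15.4 (exact permutation p = 0.0595). Similarity as a Pearson correlation differed by 0.046 (exact permutation p = 0.0357). No paired analysis was possible because the labels pair no embryos across the groups, and replicate numbers follow accession order. With 4992 counts in 8-cell embryo 3, a feature near 100 CPM is expected less than once there, so low features limit the comparison.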
